A study of Mus musculus with 12 samples.

Results

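The 8 genes described here carry fatty acids into the mitochondrion, oxidise them there and in the peroxisome, and turn the product into ketone bodies: Ppara, Cpt1a, Cpt2, Acadm, Acadl, Hadha, Ehhadh and Bdh1. They were taken by symbol, with earlier results of these data known, and each matched 1 of the 55487 genes in a table of RNA-seq counts from mouse liver and brain. All 8 passed the filter on low counts in both tissues, so no member was lost. A further 75 genes of the same pathways, listed by role, gave the surrounding context.

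The tissues came from 6 mice, 3 labelled WT (mice B, D and E) and 3 labelled KO for Mettl5 (mice A, C and F), and each mouse gave 1 liver and 1 brain library, so that the 4 groups hold 3 libraries each. METTL5 is the methyltransferase that places an N6-methyladenosine on 18S ribosomal RNA. The KO allele lacks exon 2 of Mettl5 in every tissue: a floxed exon, introduced into C57bl/6 x 129S6 hybrid ES cells and backcrossed to B6, was removed by crossing to a CMV-cre line. The labels call the controls WT, whereas the study's text speaks of heterozygous controls for its RNA-seq, so WT means here only that a library carries that label. Mice of both sexes were used in the study, but the labels give no sex, age, litter, feeding state or collection time for any mouse.

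In fasting, fatty acids released from fat become the main fuel of the liver. The nuclear receptor PPAR-alpha, encoded by Ppara, binds fatty acid ligands as a heterodimer with RXR-alpha and activates genes of this programme. CPT1A on the outer mitochondrial membrane joins long-chain fatty acids to carnitine and is the controlled step of their entry, and CPT2 on the inner membrane reverses the reaction inside. ACADL and ACADM, the long-chain and medium-chain acyl-CoA dehydrogenases, take the first step of each round of beta-oxidation, and HADHA, the alpha subunit of the mitochondrial trifunctional protein, carries the hydratase and dehydrogenase steps for long chains, with the thiolase step on the beta subunit. EHHADH is a bifunctional enzyme of the peroxisome, which shortens chains in an organelle of its own. BDH1 interconverts acetoacetate and beta-hydroxybutyrate, so it serves both the liver, which makes ketone bodies, and the brain, which burns them.

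The genes lie on 7 chromosomes of the mouse build mm10: Acadl (ENSMUSG00000026003.5) at chr1:66830839-66863277, Acadm (ENSMUSG00000062908.12) at chr3:153922357-153944632, Cpt2 (ENSMUSG00000028607.16) at chr4:107903981-107923610, Hadha (ENSMUSG00000025745.12) at chr5:30118304-30155162 and Ehhadh (ENSMUSG00000022853.7) at chr16:21761287-21787807, all on the minus strand, and Ppara (ENSMUSG00000022383.13) at chr15:85734983-85802819, Bdh1 (ENSMUSG00000046598.15) at chr16:31422280-31458901 and Cpt1a (ENSMUSG00000024900.5) at chr19:3322334-3385733 on the plus strand. Hadha stands head to head with Hadhb, which encodes the beta subunit of the same trifunctional protein and begins 85 bases away on the opposite strand. No member shares exon bases with another gene on its own strand. On the opposite strand Hadha shares 75 exon bases with Garem2 and Bdh1 shares 533 with Gm15743, and the counting was set to use the strand.

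RefSeq promoter windows (GRCm38.p6, the same assembly as mm10), from 250 bases before to 50 bases after a transcription start, were found for all 8 genes, with 9 windows in all because Bdh1 has 2. The 5 shown include those of Cpt2 and Hadha, the pair with the highest Pearson r over all libraries of each tissue. The others are those of Ehhadh, the gene with the widest gap between the tissues, and of Cpt1a and Acadm. Only these last members held the motif AGGTCA, the hexamer read by PPAR-alpha and related receptors. Each is written 5′ to 3′ on the strand of its gene, at chr19:3323051-3323350 (plus strand) for Cpt1a and, on the minus strand, at chr3:153944594-153944893 for Acadm, chr4:107923540-107923839 for Cpt2, chr5:30154931-30155230 for Hadha and chr16:21787785-21788084 for Ehhadh. Capitals mark matches on either strand to AGGTCA, to the CCAAT box (CCAAT), to the GC box (GGGCGG) or to the TATA box (TATAAA).
Cpt1a: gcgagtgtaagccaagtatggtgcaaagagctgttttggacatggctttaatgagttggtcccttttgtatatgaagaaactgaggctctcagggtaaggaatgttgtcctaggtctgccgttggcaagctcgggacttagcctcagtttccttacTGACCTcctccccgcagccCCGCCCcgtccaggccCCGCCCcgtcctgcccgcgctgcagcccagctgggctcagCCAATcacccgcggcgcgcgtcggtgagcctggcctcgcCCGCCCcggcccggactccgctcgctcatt
Acadm: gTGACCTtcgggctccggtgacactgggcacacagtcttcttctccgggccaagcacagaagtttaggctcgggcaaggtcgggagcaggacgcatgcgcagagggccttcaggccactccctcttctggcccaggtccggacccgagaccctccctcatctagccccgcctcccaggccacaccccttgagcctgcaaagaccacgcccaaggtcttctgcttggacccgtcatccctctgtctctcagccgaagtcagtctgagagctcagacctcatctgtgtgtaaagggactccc
Cpt2: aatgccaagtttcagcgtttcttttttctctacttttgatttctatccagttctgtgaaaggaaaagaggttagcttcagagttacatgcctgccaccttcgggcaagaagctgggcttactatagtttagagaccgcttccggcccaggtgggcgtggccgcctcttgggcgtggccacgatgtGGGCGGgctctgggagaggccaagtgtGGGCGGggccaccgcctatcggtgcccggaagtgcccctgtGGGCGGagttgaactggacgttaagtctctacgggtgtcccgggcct
Hadha: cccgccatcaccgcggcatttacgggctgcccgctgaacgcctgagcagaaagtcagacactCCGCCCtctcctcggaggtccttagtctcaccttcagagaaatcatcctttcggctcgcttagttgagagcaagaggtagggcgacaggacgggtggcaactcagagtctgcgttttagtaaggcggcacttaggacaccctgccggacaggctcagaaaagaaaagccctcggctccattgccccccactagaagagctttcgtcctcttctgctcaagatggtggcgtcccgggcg
Ehhadh: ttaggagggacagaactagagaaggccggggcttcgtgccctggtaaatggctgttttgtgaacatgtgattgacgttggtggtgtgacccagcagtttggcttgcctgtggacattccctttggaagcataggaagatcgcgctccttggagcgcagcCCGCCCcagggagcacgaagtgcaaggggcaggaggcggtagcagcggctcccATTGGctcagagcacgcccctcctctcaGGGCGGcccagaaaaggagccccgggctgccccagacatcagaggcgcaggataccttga
AGGTCA occurred in 1 place in the Cpt1a window and 1 in the Acadm window and in 16.3% of all 32851 promoter windows of this length. Of the other letters, Cpt1a held 3 GC boxes and 1 CCAAT box, Cpt2 held 3 GC boxes, Hadha held 1, Ehhadh held 2 with 1 CCAAT box, and the Acadm window held none. The GC box occurred in 35.7% and the CCAAT box in 37.4% of all windows. TATAAA, present in 13.6% of windows, matched no window of the 8 genes. The direct repeat AGGTCANAGGTCA, the full element bound by the PPAR-alpha heterodimer, had an exact match in 13 of all windows (0.0396%) and in none of the 9. These matches are letters in a window and were not shown to be binding sites.

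Library totals ran from 14403309 to 21623180 counts, and the 8 genes took 0.163 to 0.191% of the counts in liver and 0.0161 to 0.0276% in brain. Mettl5, the targeted gene, had 14.9, 8.13 and 8.35 CPM (counts scaled to library size, with TMM factors within a tissue) in the WT livers of mice B, D and E and 3.85, 3.64 and 4.07 in the KO livers of mice A, C and F. In brain it had 9.09, 5.87 and 5.02 in WT and 3.33, 3.96 and 3.82 in KO, so every KO library lay below every WT library in both tissues. The counts span all exons of Mettl5, and Mettl5 was lower in KO by 1.44 on the log2 scale in liver (SE 0.27, adjusted p = 0.383) and by 0.84 in brain (SE 0.27, adjusted p = 0.373) in edgeR's quasi-likelihood test with Benjamini-Hochberg adjustment over all genes, which calls at an adjusted p under 0.1. Other fits did call Mettl5: in liver DESeq2 (adjusted p = 0.00189), edgeR with no filter on low counts (4.29e-06), with a Y-linked covariate (0.0710) and without WT liver D (0.0848), and in brain edgeR with no filter (0.0936). The summed CPM of 5 hepatocyte markers was 57853 or more in every liver and at most 31.7 in every brain, and that of 5 neuronal markers was 2244 or more in every brain and at most 16.7 in every liver. The share of counts on mitochondrial rRNA did not overlap between genotypes: WT livers had 10.7 to 16.9% and KO livers 7.36 to 8.66%, while WT brains had 7.63 to 17.7% and KO brains 21.4 to 31.6%. Mice E and F, 1 of each genotype, had at most 20 counts on Y-linked genes in a library, where the other 4 mice had at least 2112. Xist had 19028 counts in the liver and 10154 in the brain of mouse E, 16951 and 9446 in mouse F, and at most 19 in any other library. By these counts mice E and F were female and the other 4 male, so each genotype held both sexes. The Y-linked covariate used below follows this split. In whole tissue, fewer cells of a type and less RNA per cell cannot be told apart.

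The first comparison set WT liver beside WT brain, which gives the level of the genes without the genotype. Both tissues came from the same mice B, D and E, and the folds, intervals and p-values given here are from a fit that did not pair them. With mouse as a replicate block, edgeR called 13588 of all genes in place of 13861 and again 8 of the 8. All 8 genes were higher in liver, from Bdh1 (6.14-fold, 95% interval 4.72 to 7.98) to Ehhadh (129-fold, 89.5 to 187). The peroxisomal, regulatory and carnitine shuttle genes differed by 21.2-fold to 129-fold, and the mitochondrial dehydrogenase, trifunctional protein and ketone body genes by 6.14-fold to 12.1-fold. At an adjusted p under 0.1 in edgeR's quasi-likelihood test, 8 of 8 were called higher in liver, where 35.4% of the 17694 genes tested were. The median log2 difference was 4.00 over the 8 genes and −0.16 over all genes tested.

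**Figure D1:**
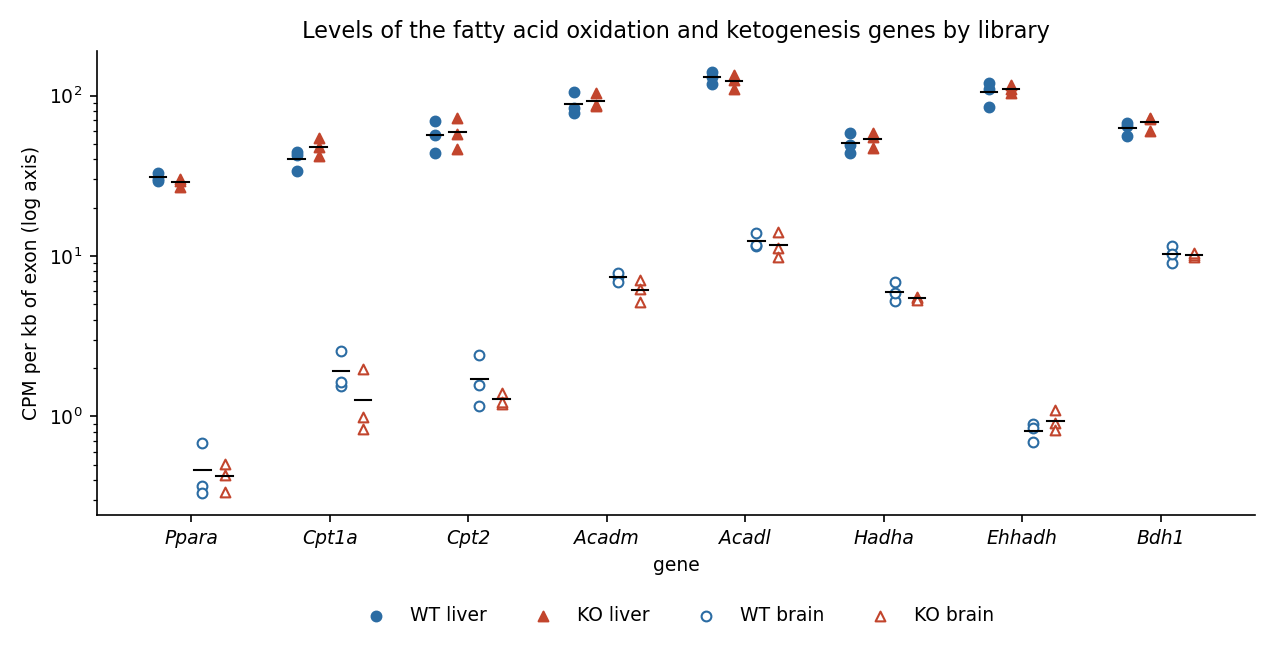
Level of each of the 8 genes in CPM per kb of exon (log axis) in every library, with filled symbols for liver, open symbols for brain, circles for WT, triangles for KO and a bar at the mean of 3 libraries. Every liver library lies above every brain library for every gene, by 6.10-fold between WT means for Bdh1 and by 129-fold for Ehhadh.

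To compare genes with each other, levels were taken per kilobase of annotated exon (CPM per kb), scaled over all 12 libraries, with every annotated exon counted whether or not a tissue uses it. Ppara, the receptor gene, was the lowest of the 8 in every group. Its WT livers B, D and E had 30.3, 33.0 and 29.5 CPM per kb, and its WT brains had 0.369, 0.685 and 0.330. The lowest liver was 43.1 times the highest brain, and the fitted fold was 66.9 (95% interval 43.5 to 103, adjusted p = 1.40e-08). Its brain level rested on 25 to 66 counts per library.

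The carnitine shuttle genes came next in the size of the gap. Cpt1a, the gated entry step, had 42.4, 44.6 and 34.0 CPM per kb in WT livers B, D and E and 1.55, 2.55 and 1.65 in the WT brains, a fitted difference of 21.2-fold (14.6 to 30.8, adjusted p = 5.02e-08). Cpt2, its inner membrane partner, had 68.9, 56.8 and 44.1 in the WT livers and 1.16, 2.40 and 1.57 in the WT brains, a fitted difference of 33.1-fold (21.1 to 52.0, adjusted p = 7.54e-08). The intervals of the pair overlap. In the brain of mouse D both genes stood above the other WT brains. Among the 6 tested others of this role, Slc25a20, the carnitine/acylcarnitine carrier that works between the pair, was higher in liver by 3.64 on the log2 scale (SE 0.21), and Cpt1c, the neuronal paralogue of Cpt1a, was lower in liver, with a log2 difference of −6.69 (SE 0.35).

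The 3 mitochondrial oxidation genes differed by 8.49-fold to 12.1-fold. Acadl had 140.5, 119 and 131 CPM per kb in WT livers B, D and E and 11.6, 13.9 and 11.7 in the WT brains. Acadm had 105, 83.5 and 77.7 in the livers and 7.37, 7.87 and 6.88 in the brains, and Hadha had 58.7, 49.0 and 43.7 against 5.21, 6.89 and 5.84. The fitted folds were 10.5 for Acadl (8.12 to 13.7), 12.1 for Acadm (9.10 to 16.1) and 8.49 for Hadha (6.29 to 11.5), with edgeR adjusted p at most 1.42e-07. Hadha's partner Hadhb differed less, by 1.90 on the log2 scale (SE 0.15) against 3.09 (SE 0.19) for Hadha, although the 2 proteins form 1 complex and the genes start 85 bases apart; the difference between the pair was not tested. Per kb, Hadhb had 10.2 ± 1.17 in WT liver (SD, n = 3) where Hadha had 50.5 ± 7.58, and 2.75 ± 0.02 in WT brain where Hadha had 5.98 ± 0.85. All 14 other genes of mitochondrial oxidation were called higher in liver, from Acad9 (log2 difference 1.03) to the thiolase gene Acaa2 (6.19).

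Ehhadh, the peroxisomal enzyme, had 120.3, 84.3 and 109.9 CPM per kb in WT livers B, D and E and 0.899, 0.694 and 0.850 in the WT brains. The lowest liver was 93.8 times the highest brain, and the adjusted p was 2.20e-09. Of the 14 other peroxisomal genes 13 were called higher in liver, among them the thiolase Acaa1b (log2 difference 11.0, SE 0.44) and the branched-chain oxidase Acox2 (9.66, SE 0.33) beyond Ehhadh (7.02, SE 0.24).

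Bdh1, the ketone body dehydrogenase, had the smallest tissue gap of the 8. Its WT livers had 67.6, 64.3 and 56.1 CPM per kb and its WT brains 8.97, 11.6 and 10.2 (adjusted p = 1.84e-07). Oxct1, which commits ketone bodies to oxidation, was lower in liver (log2 difference −4.77, SE 0.20), with WT means of 2.07 ± 0.38 CPM per kb in liver and 56.8 ± 4.13 in brain (SD, n = 3).

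**Figure D2:**
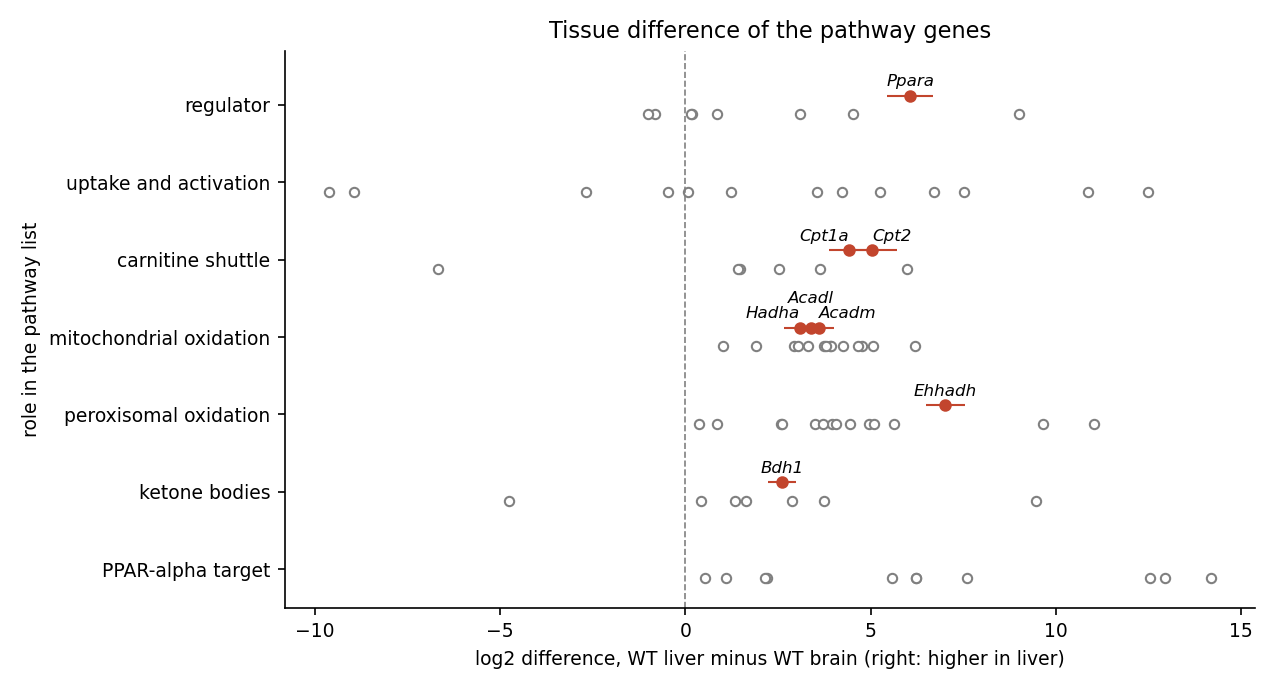
Log2 difference of WT liver minus WT brain for the pathway genes tested, by role, with the 8 genes as filled points with their 95% intervals and the others as open circles. The 8 genes lie between 2.62 and 7.02, and the points left of 0 include Cpt1c, Oxct1, Acsl6 and Acsbg1.

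Over the whole list, 59 of the 73 others tested were called higher in liver, 8 were called lower and 6 were not called, where 35.4% of all genes tested were called higher and 42.9% lower. Besides Cpt1c and Oxct1, the genes that were lower in liver were the acyl-CoA synthetases Acsl6 (log2 difference −9.62), Acsbg1 (−8.95) and Acsl3 (−0.46), the fatty acid transporter Slc27a1 (−2.68) and the coactivators Ppargc1a (−0.83) and Ppargc1b (−1.01). All 10 called PPAR-alpha targets of the 11 tested were higher in liver. Genes of this list other than the 8 were picked for mention in the tissue comparison after their values were seen.

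The order of the 8 genes by level differed between tissues. In WT liver the means ran from Acadl (129.9 ± 10.9 CPM per kb, SD, n = 3) through Ehhadh (105 ± 18.5), Acadm (88.8 ± 14.4), Bdh1 (62.7 ± 5.88), Cpt2 (56.6 ± 12.4), Hadha (50.5 ± 7.58) and Cpt1a (40.4 ± 5.59) to Ppara (30.9 ± 1.87). Only Acadm and Bdh1, and Cpt1a and Ppara, were neighbours whose libraries did not overlap. In WT brain the order was Acadl (12.4 ± 1.31), Bdh1 (10.3 ± 1.31), Acadm (7.37 ± 0.50), Hadha (5.98 ± 0.85), Cpt1a (1.92 ± 0.55), Cpt2 (1.71 ± 0.63), Ehhadh (0.81 ± 0.11) and Ppara (0.46 ± 0.19). There the libraries of neighbours overlapped for Acadl and Bdh1, for Acadm and Hadha and for Cpt1a and Cpt2, and the others stood apart. Ehhadh thus had rank 2 in liver and rank 7 in brain, and Bdh1 had rank 4 in liver and rank 2 in brain.

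The second comparison asked whether loss of Mettl5 altered the mRNA of these genes in the liver. No difference passed the test: 0 of 8 were called at an adjusted p under 0.1 in edgeR's quasi-likelihood test, where 0% of the 14075 genes tested were, and 0 of 8 had an unadjusted p under 0.05, where 7.33% of all genes did. DESeq2 called 171 genes and also 0 of the 8. The log2 fold changes of KO against WT ran from −0.13 for Ppara to 0.22 for Cpt1a, 6 above and 2 below 0, with a median of 0.039 against −0.0024 over all genes. The median was −0.045 without WT liver E, −0.040 without KO liver C and 0.15 without WT liver B. The 95% intervals of all 8 lay between −0.43 and 0.58, so that in these 6 livers a fold change above 1.49 or below 0.741 was outside the interval of every gene.

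Ppara itself was the one member whose genotypes did not overlap in CPM. It had 91.3, 101.8 and 90.4 CPM in WT livers B, D and E and 80.7, 90.1 and 87.6 in KO livers A, C and F. The 2 nearest libraries, WT E and KO C, were 0.38 CPM apart. In CPM per kb, scaled over all 12 libraries, KO C (29.97) lay above WT E (29.48), so there the genotypes overlapped. The log2 fold change of −0.13 (SE 0.12, 95% interval −0.41 to 0.15) had an edgeR adjusted p of 0.8799. Libraries of the genotypes did not overlap for 12.9% of all genes tested in liver, and every KO lay below every WT library for 6.44%.

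Cpt1a had the largest difference of the 8 in liver. Its WT livers had 255, 274 and 208 CPM and its KO livers 252, 285 and 322, a log2 fold change of 0.22 (SE 0.16, 95% interval −0.14 to 0.58, adjusted p = 0.837). The genotypes overlapped, since KO A lay below WT B and D. With each mouse left out in turn, the log2 fold change of Cpt1a ran from 0.11 to 0.31. Cpt2 had 129.5, 109 and 84.2 in WT and 108, 137 and 86.6 in KO, a log2 fold change of 0.035 (SE 0.21). Its spread within each genotype was the widest of the 8 in liver, with coefficients of variation of 21.1% in WT and 22.7% in KO. The lowest value of each genotype came from the mouse with Xist counts, E in WT and F in KO.

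Acadm had 323, 262 and 243 CPM in WT livers B, D and E and 262, 319 and 266 in KO livers A, C and F. Acadl had 222, 191 and 209 in WT and 172, 210.0 and 194 in KO, and Hadha had 403, 344 and 305 in WT and 375, 397 and 320.3 in KO. The log2 fold changes were 0.032 (SE 0.16) for Acadm, −0.11 (SE 0.14) for Acadl and 0.054 (SE 0.16) for Hadha, each smaller than its SE and with the genotypes overlapping. The edgeR adjusted p of these 3 genes was at least 0.921.

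Ehhadh had 282, 202 and 262 CPM in WT livers and 243, 271 and 254 in KO livers, a log2 fold change of 0.042 (SE 0.16). Bdh1 had 207, 201 and 175 in WT and 183, 219 and 217 in KO, a log2 fold change of 0.089 (SE 0.14). The WT values of Ehhadh enclosed all KO values, and those of Bdh1 overlapped them.

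**Figure D3:**
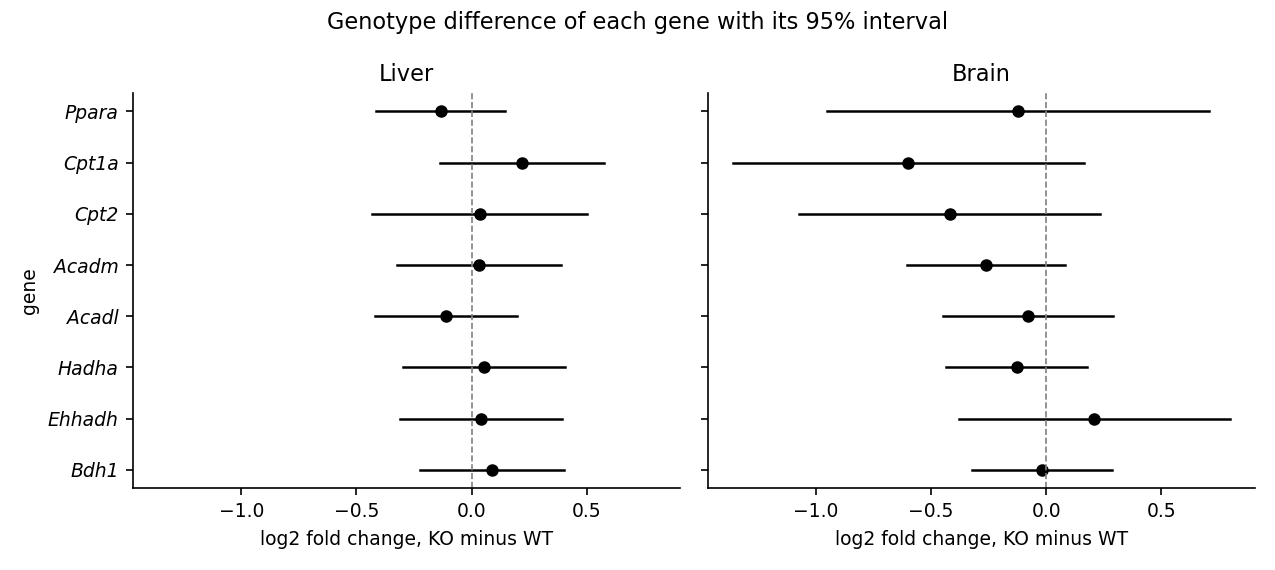
Log2 fold change of KO minus WT for each of the 8 genes in liver (left) and brain (right), with points at the fitted value and lines for the 95% interval. Every interval crosses 0, and the interval of Cpt1a runs from −0.14 to 0.58 for liver and −1.36 to 0.16 for brain.

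The other pathway genes gave 0 of 71 calls in liver by edgeR and 1 by DESeq2 (Acacb, adjusted p = 0.0647). At an unadjusted p under 0.05 there were 4, where 7.33% of all genes tested were, 643 of those 1032 lower in KO, so nothing particular to the list is read from the count. The 4 were all lower in KO: Acacb, whose product makes the malonyl-CoA that inhibits CPT1 (log2 fold change −0.70, SE 0.19, adjusted p = 0.445), the acyl-CoA synthetase Acsl3 (−0.58, SE 0.17, adjusted p = 0.463), the acyl-CoA binding protein gene Dbi (−0.45, SE 0.18, adjusted p = 0.629) and the fatty acid translocase gene Cd36 (−1.03, SE 0.39, adjusted p = 0.659), all by edgeR. With no filter on low counts edgeR called Acacb (adjusted p = 0.00366) and Acsl3 (0.0488). Acacb had 342, 223 and 312 CPM in WT livers B, D and E and 148, 200.04 and 191 in KO livers A, C and F, without overlap. Cd36 had 50.4, 55.1 and 61.5 in WT and 15.5, 21.2 and 45.2 in KO, also without overlap. The log2 fold change of Cd36 ran from −1.60 to −0.74 with each mouse left out in turn. In all, the genotypes stood apart for 7 of the 71, 3 higher and 4 lower in KO, against 12.9% of all genes. Cd36 lies outside the rule for naming genes and was picked after its values were seen. The summed CPM of 5 adipocyte markers lay at 0.360, 9.09 and 5.45 in the same WT livers and at 0, 0.280 and 0 in the KO livers, 5 of 5 markers were lower in KO on average, 3 of them (Adipoq, Plin1 and Lep) seen in WT liver E alone and at 0 in the other 5, and their part in these differences was not tested.

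The 12 tested targets of PPAR-alpha in liver gave 0 calls, 3 with a fitted value above and 9 below 0 and a median log2 fold change of −0.25. The 2 with the smallest p-values were Vnn1, a pantetheinase gene (−1.14, SE 0.48, adjusted p = 0.698 by edgeR), and Angptl4, a secreted inhibitor of lipoprotein lipase (0.64, SE 0.33, adjusted p = 0.757 by edgeR). Angptl4 had 48.0, 64.0 and 29.6 CPM in WT livers and 52.6, 68.1 and 100.2 in KO livers. In the mitochondrial oxidation role, 7 of the 14 others had a fitted value above and 7 below 0, with a median of −0.038.

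The same comparison in brain gave no call either. Of the 8 genes, 0 were called at an adjusted p under 0.1 by edgeR, where 0.0640% of the 17188 genes tested were (11 genes, none of this pathway), and 0 of 8 had an unadjusted p under 0.05, where 11.0% of all genes did. DESeq2 called 267 genes and 0 of the 8. The fitted log2 fold change was below 0 for 7 genes and above 0 for Ehhadh, with a median of −0.13 against −0.0016 over all genes. Without the WT brain of mouse D the median was −0.0094, and without WT brain B it was −0.23. For 0 of 8 genes did the genotypes stand apart, against 16.3% of all genes tested in brain.

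The carnitine shuttle genes had the largest differences of the 8 in brain. Cpt1a had 15.1, 24.6 and 16.0 CPM in WT brains B, D and E and 9.59, 19.1 and 8.11 in KO brains A, C and F. Mouse D was high among WT and mouse C high among KO, above WT B and E. The log2 fold change was −0.60 (SE 0.33, 95% interval −1.36 to 0.16, adjusted p = 0.522 by edgeR), and it was −0.35 without WT brain D and −1.07 without KO brain C. Cpt1a was called when no filter on low counts was applied (log2 fold change −0.62, adjusted p = 0.0748), a fit in which edgeR called 1000 genes in place of 11. Cpt2 had 3.54, 7.23 and 4.77 CPM in WT and 3.66, 4.24 and 3.76 in KO, a log2 fold change of −0.42 (SE 0.29, adjusted p = 0.583 by edgeR) that was −0.11 without WT brain D.

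Marker sums of other cell types are given for the same libraries. The summed CPM of 5 astrocyte markers was 1559, 2238 and 1704 in WT brains B, D and E and 1328, 1637 and 1290.1 in KO brains A, C and F, with 5 of 5 lower in KO on average, and that of 5 choroid plexus markers was 268, 381 and 222 in WT and 112, 179 and 156 in KO, again with 5 of 5 lower. None of these markers was at 0. Within each genotype the library highest in Cpt1a was also the highest in both sums, and also in the sums of oligodendrocyte, microglia, endothelial and stellate cell and fibroblast markers, that is in 6 of the 11 marker lists. Their part in the brain values of Cpt1a was not tested.

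**Figure D4:**
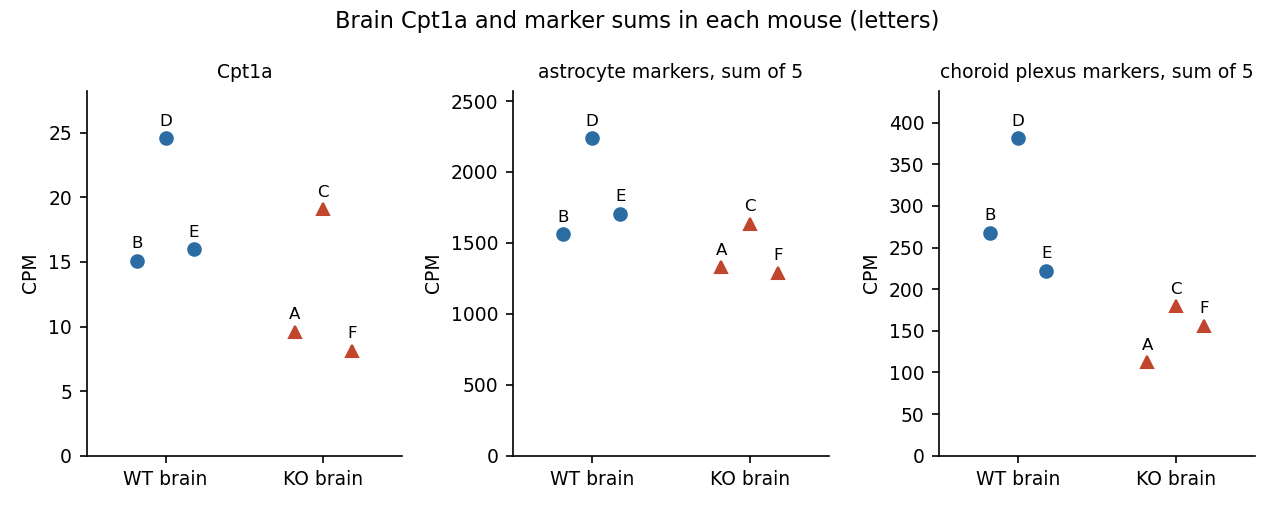
CPM of Cpt1a (left) and summed CPM of 5 astrocyte markers (middle) and 5 choroid plexus markers (right) in the WT (circles) and KO (triangles) brain of each mouse, named by its letter. Mice D and C are the highest of their genotype in all 3 panels, as in 6 of the 11 marker lists, and the genotypes overlap for Cpt1a and the astrocyte sum but not for the choroid plexus sum.

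Among the oxidation enzymes in brain, Acadm had 36.7, 38.8 and 34.2 CPM in WT and 35.1, 25.5 and 31.0 in KO (log2 fold change −0.26, SE 0.15), so that KO A lay between WT E and WT B. Acadl had 29.6, 35.2 and 29.8 in WT and 28.7, 35.7 and 25.2 in KO (−0.077, SE 0.17). Hadha had 57.9, 75.9 and 64.7 in WT and 61.0, 61.5 and 59.3 in KO (−0.13, SE 0.14), with all KO values inside the WT range.

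Ppara had 1.80, 3.31 and 1.61 CPM in WT brains and 2.11, 2.45 and 1.65 in KO brains, and the 95% interval of its log2 fold change of −0.12 reached from −0.95 to 0.71. Ehhadh had 3.42, 2.61 and 3.22 in WT and 4.15, 3.45 and 3.10 in KO (0.21, SE 0.26). Bdh1 had 44.5, 56.8 and 50.5 in WT and 48.5, 49.9 and 51.7 in KO (−0.017, SE 0.14, 95% interval −0.32 to 0.29). In brain, 25 to 66 counts per library lay behind Ppara and 47 to 64 behind Ehhadh.

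The other pathway genes in brain gave 0 of 63 calls by edgeR and by DESeq2, and 4 at an unadjusted p under 0.05, all lower in KO. Over all genes tested in brain 11.0% were under 0.05, 861 of those 1885 lower in KO, and nothing particular to the list is read from its 4. Among these were Dbi (−0.38, SE 0.12), the mitochondrial carrier gene Ucp2 (−0.83, SE 0.28) and the lipid droplet coat gene Plin2 (−0.75, SE 0.27), with edgeR adjusted p from 0.377 to 0.395. With no filter on low counts edgeR called Ucp2 (adjusted p = 0.00654). The log2 fold change of Ucp2 ran from −1.04 to −0.49 with each mouse left out in turn. Dbi had 85.3, 83.6 and 76.1 CPM in WT brains and 66.9, 59.3 and 62.2 in KO brains, and KO lay below WT in every library of both tissues. In all, the genotypes stood apart in brain for 4 of the 63, 1 higher and 3 lower in KO, against 16.3% of all genes. All 6 tested others of the carnitine shuttle had a fitted value below 0, with a median of −0.24, and 0 of them had an unadjusted p under 0.05 by edgeR. Of the 7 others of the ketone body role, 5 had a fitted value above 0, with a median of 0.18. Over all genes tested in brain, 8558 of 17188 were above 0.

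The third comparison tested whether the genotype difference itself differed between liver and brain, over all 12 libraries. Of the 8 genes 0 were called by edgeR at an adjusted p under 0.1, where 0% of 18944 genes were, and 1 had an unadjusted p under 0.05, where 10.6% of all genes did. That gene was Cpt1a, with a liver effect minus brain effect of 0.85 on the log2 scale (SE 0.39, 95% interval 0.0052 to 1.70, adjusted p = 0.470 by edgeR). Cpt2 followed with 0.49 (SE 0.36), Acadm with 0.32 (SE 0.23) and Hadha with 0.21 (SE 0.22), and the other 4 genes lay between −0.14 and 0.14. With each mouse left out in turn, Cpt1a ran from 0.53 (without KO mouse F) to 1.34 (without KO mouse C), Cpt2 from 0.17 (without WT mouse D) to 0.87 (without WT mouse B), Acadm from 0.12 (without KO mouse C) to 0.49 (without KO mouse A) and Hadha from 0.081 (without WT mouse D) to 0.43 (without WT mouse B). The adjusted p of the 7 genes other than Cpt1a was at least 0.644. With mouse as a replicate block, pairing each animal's tissues, Cpt1a had 0.91 (adjusted p = 0.520 by edgeR) and again 0 of 8 were called, as with DESeq2, which called 367 of all genes. Over the 74 other pathway genes, 0 were called and 5 had an unadjusted p under 0.05.

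Levels of the genes were then set beside each other across libraries of 1 tissue, as Pearson correlations of log2 CPM over 6 libraries, given as a description since all points share their libraries and depth. Across the 28 pairs of the 8 genes the median r was 0.29 in liver and 0.38 in brain. By Pearson r over all 6 libraries, Cpt2 and Hadha followed each other most closely in both tissues. In liver they had r = 0.95 (Spearman's rho 0.89, and r = 0.92 in the 4 libraries left without the 2 farthest from the median of Cpt2), and in brain 0.99 (rho 0.94, and 0.73 in 4 libraries). For every pair the 2 left out are farthest from the median of the gene earlier in the opening list. Other measures put other pairs first: in liver Acadl and Ehhadh had rho 0.943, and in 4 brain libraries Ppara and Ehhadh had r = 0.974. With the genotype means removed, Cpt2 and Hadha had r = 0.96 in liver and 0.983 in brain, where Cpt1a and Acadl had 0.986. Mice E and F had the lowest livers of both Cpt2 (84.2 and 86.6 CPM) and Hadha (305 and 320.3 CPM). The part of sex in the liver r was not tested. Acadm had r = 0.88 with Cpt2 and 0.87 with Hadha in liver (0.73 and 0.60 in 4 libraries) and 0.34 and 0.41 in brain (−0.98 and −0.089 in 4 libraries), and the difference between the tissues was not tested.

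The highest r of Cpt1a in liver was 0.87, with Bdh1 (0.75 in 4 libraries), where that with Cpt2 was 0.19 (0.41 in 4 libraries). In brain its highest was 0.91, with Acadl (0.85 in 4 libraries). Ppara had r between −0.48 (with Ehhadh) and 0.40 (with Acadl) to the other 7 in liver, but in the 4 libraries left without the 2 farthest the 7 values ran from −0.70 (with Cpt1a) to 0.98 (with Acadl), and that with Ehhadh was 0.85. Ehhadh in brain had a negative r to each of the other 7, down to −0.78 with Cpt2. In 4 libraries its r stayed negative with Cpt1a (−0.82), Bdh1 (−0.64), Cpt2 (−0.17) and Hadha (−0.085) and was positive with Ppara (0.97), Acadm (0.53) and Acadl (0.35). The libraries left out were chosen on Ehhadh only in the pair with Bdh1 and on the other gene elsewhere, so the values come from different sets. The sign with Ppara, Acadm and Acadl rests on the libraries left out in that pair.

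**Figure D5:**
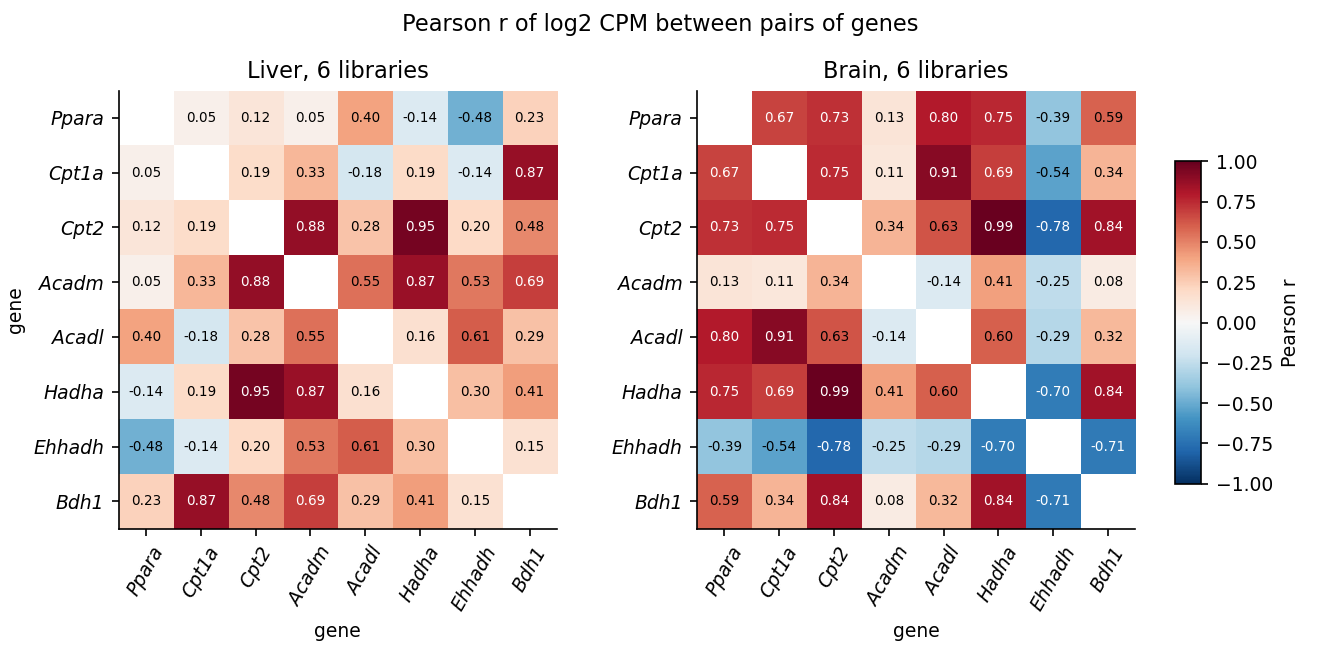
Pearson r of log2 CPM for each pair of the 8 genes over 6 liver libraries (left) and 6 brain libraries (right), from blue (−1) through white (0) to red (1). Cpt2 and Hadha have the highest r in both panels, 0.95 and 0.99. The Ehhadh row is negative in brain over all 6 libraries, though not with every gene when 2 libraries, chosen pair by pair, are left out.

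Over all genes tested in both tissues, the 2 genes most like each of the 8 across the 12 libraries had r of 0.998 to 0.999, values in which the gap between the tissues takes part. Hadha was the gene most like Cpt2 among 12573 genes and Cpt2 the gene most like Hadha, both at r = 0.999. Eci1, another enzyme of mitochondrial beta-oxidation, was the most like Acadm (0.998), and the aldehyde dehydrogenase genes Aldh7a1, Aldh9a1 and Aldh2 stood among the closest 2 for Cpt2, Acadl and Bdh1. The closest for the others were Anxa4 for Ppara, Fcgrt for Cpt1a, Dsg2 for Ehhadh and Vtn for Bdh1. Within the 6 livers alone, Angptl4 was the most like Cpt1a among 14074 genes (r = 0.994), and the next was Ctsa (0.985). Each liver value was picked as the highest or next highest of 14074 correlations over 6 points and was not tested. Shared control of the genes is not read from these values. For the other genes the closest in liver were Dnajc4 for Ppara (0.996), Polr2b for Cpt2 (0.999), Lcmt2 for Acadm (0.984), Gm12992 for Acadl (0.991), Nrde2 for Hadha (0.996), Gm5873 for Ehhadh (0.988) and Bloc1s1 for Bdh1 (0.993).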

How the data were processed

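The authors made stranded total RNA libraries from whole liver and brain, read them single-end, trimmed with Trimmomatic, aligned to mm10 with STAR 2.7.3a and summed exon reads per gene with featureCounts set to the reverse strand, keeping each sample apart. The deposited table holds these raw counts per gene, without normalisation, for 55487 genes, of which 21046 had no count in any library. Library totals were 14403309 to 21623180 counts. Groups were taken from the labels, which name genotype, tissue and mouse, and p-values measure the spread between these mice.

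The tests were edgeR's (4.0.16, in R 4.3.3): TMM normalisation, filterByExpr and robust quasi-likelihood F tests. P-values were adjusted by Benjamini-Hochberg across every gene tested, and genes under 0.1 were called. KO and WT were compared in the 6 libraries of each tissue, the liver effect was set against the brain effect over 12 libraries, and WT liver against WT brain over 6. SE and 95% intervals came from the F statistic and its degrees of freedom. Levels are edgeR CPM, or CPM per kb of annotated exon. Correlations used log2 CPM (prior count 2). The procedure was tested on simulated data. The study's own tool, DESeq2 (version 1.42.0 here), was an alternative, as were RLE normalisation, no filter on low counts, all 12 libraries in 1 fit, dispersions without the robust option, a Y-linked covariate, mitochondrial genes left out and each mouse left out.

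The 8 genes and the lists of 75 pathway genes and of cell type markers were chosen with earlier results of these data known. The rule for naming genes covers the 8 genes, Mettl5, pathway genes called or with the 2 smallest p-values of their role and tissue, and the 2 genes most correlated with each member. Genes named outside it are said to be so where they appear. The labels give the liver and brain of a mouse the same letter, so these are paired by animal. After subtracting group means, the 2 libraries of a mouse had correlations of -0.039 to 0.14 across 12574 genes. KO and WT mice share no letters, and the labels name no KO and WT pairs. Promoter windows came from a RefSeq table (GRCm38.p6) and were matched by symbol. Some genes of the pathway list are counted but not reported here by name.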

Additional observations from a re-analysis of the deposited data

How the results depend on the processing

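Over the settings tried other than leaving out a mouse, the count of members called was 0 in liver, 0 for the liver effect minus the brain effect and 8 for WT liver against WT brain in every fit. In brain it was 0 except with no filter on low counts, which gave 1 (Cpt1a). With that setting 3 of the other pathway genes were called in liver and 2 in brain, where the main analysis called 0. DESeq2 called 1 of them in liver and the Y-linked covariate gave 2. The number of calls over all genes moved more: no filter gave 443 in liver, 1000 in brain and 183 for the difference between tissues, DESeq2 gave 171, 267 and 367, and the main analysis gave 0, 11 and 0. The Y-linked covariate gave 82 in liver. The cause of these gaps was not tested.

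With mouse as a replicate block, the paired fit of the liver effect minus the brain effect called 68 genes and 0 of the 8 members, Acadl turned from -0.0012 to 0.0076 and Ppara from 0.028 to -0.014 on the log2 scale, and the block changed no other direction or call of a member. Acadl also turned to 0.040 with no filter. No paired analysis was possible between KO and WT within a tissue because the labels name no pairs: the study counts pairs of KO and control mice, and which mice form one is not given in the sources used here.

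Leaving out each mouse in turn changed no count of members called. Over all genes the count ran from 0 to 87 in liver (87 without WT liver D, at most 2 otherwise), from 2 to 23 in brain (23 without KO brain C) and from 0 to 86 for the difference between tissues (86 without WT mouse D, at most 1 otherwise). Direction turned for 10 of the member differences, none of them past the threshold: in liver Acadm ran from -0.067 to 0.16, Cpt2 from -0.15 to 0.19, Ehhadh from -0.085 to 0.14 and Hadha from -0.037 to 0.16, in brain Acadl from -0.23 to 0.031, Bdh1 from -0.097 to 0.070 and Ppara from -0.31 to 0.27, and for the liver effect minus the brain effect Acadl from -0.15 to 0.11, Ehhadh from -0.23 to 0.024 and Ppara from -0.33 to 0.20.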
